A study of Mus musculus with 12 samples.

Results

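The expression of 10 genes that code for epithelial repair growth factors and their receptors (Areg, Ereg, Hbegf, Egfr, Fgf7, Fgf10, Fgfr2, Hgf, Met and Igf1) was followed in the lungs of mice recovering from acute lung injury (ALI). They were chosen by gene symbol, though with earlier results of these data known, and were 10 of the 55414 genes in the expression table. Lipopolysaccharide (LPS), a component of the bacterial cell wall, had been placed in the airways of all mice, and the lungs were taken on day 4. The comparison was between 6 IL-10 B-KO and 6 IL-10 B-WT lungs, so that it asked whether these genes differed in injured lungs when B cells could not make interleukin (IL)-10. IL-10 B-KO mice carried floxed Il10 alleles (Il10 flox/flox) and an Mb1-Cre allele, which is active in the B cell lineage (Mb1 is another name of Cd79a). IL-10 B-WT mice were described as the corresponding controls, and which of the alleles they carried was not given in the sources used here. All mice were on the C57BL/6J background, and their age was not given in the sources used here. Lungs without LPS were not analysed here, so that no level below can be set against an uninjured lung.

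These genes belong to the signals by which injured alveolar epithelium is rebuilt. Areg, Ereg and Hbegf code for membrane-bound ligands that are shed and activate the epidermal growth factor receptor (Egfr), whereas mesenchymal cells supply Fgf7 and Fgf10 to the receptor Fgfr2 and Hgf to the receptor Met on epithelial cells. Igf1 codes for insulin-like growth factor 1, which macrophages and fibroblasts release, and all 4 receptor systems drive the survival, spreading or division of alveolar type 2 cells.

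Expression is given as TPM, the RNA-seq unit that divides the reads of a gene by its length and brings all libraries to 1 total, by which levels can be compared between genes. The columns summed to between 991646 and 994430, the depth of each library is unknown from TPM, and no interval for counting error could be given. The targeted gene, Il10, lay between 0 and 0.88 TPM in IL-10 B-WT against 0 to 0.58 TPM in IL-10 B-KO lungs, so that it did not separate the genotypes. The B cell marker Ms4a1 was at 2.64 to 63.5 TPM in every IL-10 B-WT lung but at no more than 0.13 TPM in 4 of 6 IL-10 B-KO lungs, with 4.71 TPM in replicate 2 and 3.69 TPM in replicate 6. Fewer B cells and B cells without IL-10 therefore cannot be told apart in this comparison. Summed macrophage and monocyte markers set 1 lung of each genotype apart from its group: IL-10 B-WT replicate 1 had 1801 TPM against at most 504 in the other 5, and IL-10 B-KO replicate 2 had 234 TPM against at least 876 in the other 5. For single genes whose result rested on these lungs, values are given with and without 1 or both of them. The marker lists and gene pairs below are not given without this pair of lungs. In whole lung, fewer cells of a type and less RNA per cell cannot be told apart.

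Areg and Met, which varied together across the lungs, are introduced by the sequence before their start sites. The stretches are from RefSeq on GRCm38.p6, plus strand, and run from 250 bases before the RefSeq start of the gene. Capitals mark matches to 5 short motifs searched on both strands.
Areg, chr5:91139349-91139598: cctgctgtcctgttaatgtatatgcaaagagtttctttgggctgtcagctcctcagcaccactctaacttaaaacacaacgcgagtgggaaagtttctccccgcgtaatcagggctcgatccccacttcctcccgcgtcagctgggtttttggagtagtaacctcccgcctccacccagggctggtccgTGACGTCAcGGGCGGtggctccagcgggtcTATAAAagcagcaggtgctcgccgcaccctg
Met, chr6:17463707-17463799: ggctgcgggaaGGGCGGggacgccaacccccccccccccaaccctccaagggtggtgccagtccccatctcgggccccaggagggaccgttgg
The Met stretch stops at 93 bases, because the next 157 bases lie in the first exon of a longer Met transcript in GENCODE release M21.

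The Areg stretch held a cyclic AMP response element (TGACGTCA) that began 61 bases before the start, a motif found in the same window of 1.55% of 32851 promoters. It also held a GC box (GGGCGG, in 32.7% of promoters) at 52 bases and a TATA box (TATAAA, in 12.4%) at 31 bases before the start. The 250-base window of Met held GC boxes at 239, 117 and 20 bases, an AP-1 site (TGANTCA, in 6.75% of promoters) at 54 bases and an E box (CACGTG, in 6.02%) at 126 bases before its start. The GC box was thus the only one of the 5 motifs that both windows held. Among the 8 genes with a promoter entry, the AP-1 site was also matched in Igf1, at 37 bases, and the GC box in Egfr and Fgf10. The windows of Igf1 (from 87860861) and Fgf10 (from 118714449) lay inside the GENCODE spans of these genes, downstream of their GENCODE starts. These matches describe letters, not bound sites. Ereg and Hbegf had no entry.

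None of the 9 genes tested passed the threshold used for differentially expressed genes (DEGs), an adjusted limma p of at most 0.05 together with an absolute log2 fold change of 1 or more. Across all 15148 genes tested, 75 passed it, which is 0.495%. At an unadjusted p of at most 0.05, 2 of the 9 passed, Areg and Met, both higher in IL-10 B-KO lungs. The background at that p was 12.5% of all genes in either direction and 6.83% in the direction of Areg and Met, so that 2 of 9 is a small count to read against it. The 2 genotypes overlapped for each of the 10 genes, against 1.02% of all genes tested with groups that did not overlap. The median log2 fold change of the 9 genes was -0.08, with 4 higher and 5 lower, beside a median of 0.10 over all genes tested. The largest difference was that of Areg and the others, apart from Met, had intervals that included 0, as the plot of log2 fold changes shows.

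**Figure D1:**
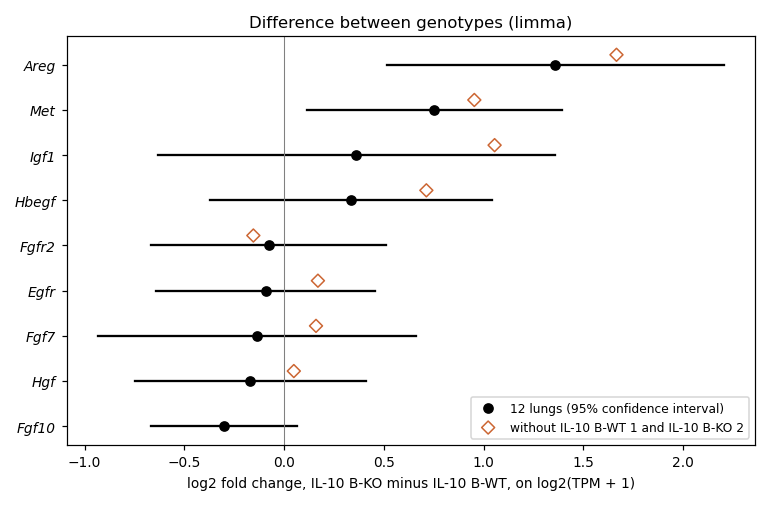
Log2 fold change of the 9 tested genes, IL-10 B-KO minus IL-10 B-WT, on log2(TPM + 1) from limma. Points and lines are the 12 lungs with their 95% confidence interval, and open diamonds are the values without replicate 1 of IL-10 B-WT and replicate 2 of IL-10 B-KO (none for Fgf10, which then fell below the filter). Areg (1.36) and Met (0.75) have intervals above 0.

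Areg (ENSMUSG00000029378, chromosome 5, 91139599 to 91148432, plus strand) codes for amphiregulin, an EGFR ligand that epithelial and innate immune cells make after injury. It ranged from 1.63 to 11.59 TPM in IL-10 B-WT lungs (median 4.48) and from 5.86 to 27.4 TPM in IL-10 B-KO lungs (median 12.1). All 6 IL-10 B-KO lungs lay above the IL-10 B-WT median and 4 of 6 IL-10 B-WT lungs lay below the lowest IL-10 B-KO lung, but IL-10 B-WT replicate 1, at 11.59 TPM, was above 3 IL-10 B-KO lungs. The mean ± SD was 5.27 ± 3.42 TPM in IL-10 B-WT against 15.1 ± 8.32 TPM in IL-10 B-KO lungs (n = 6 each), a ratio of 2.86. On log2(TPM + 1), Areg differed by 1.36 (SE 0.39, 95% confidence interval 0.51 to 2.20), with an unadjusted limma p of 0.00403 and an adjusted p of 0.195. A two-sided exact permutation test of the same difference gave p = 0.0152, where 0.00216 is the smallest p that 6 against 6 lungs allow. When IL-10 B-WT replicate 1 was left out, the adjusted limma p of Areg was 0.0370 at a log2 fold change of 1.59, so that whether Areg passed the threshold rested on this lung. In that setting 3.85% of all genes tested passed.

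The neighbor of Areg, Ereg (ENSMUSG00000029377, chromosome 5, 91074622 to 91093646, plus strand), codes for epiregulin, another EGFR ligand, and ends 45952 bases before Areg starts. Ereg was at 0.01 to 1.26 TPM in IL-10 B-WT lungs (median 0.045) and at 0.05 to 9.27 TPM in IL-10 B-KO lungs (median 0.165). It reached 1 TPM in only 3 lungs, IL-10 B-WT replicate 1 (1.26 TPM) and IL-10 B-KO replicates 3 (2.72 TPM) and 5 (9.27 TPM), and was therefore not tested with limma. Those 3 lungs were also among the 4 with the highest Areg. All 6 IL-10 B-KO lungs were above the IL-10 B-WT median, but the exact permutation test gave p = 0.195 for a difference of 0.73 on log2(TPM + 1). This difference rested on single lungs: it was 0.25 without IL-10 B-KO replicate 5 (exact permutation p = 0.390) and 0.92 when IL-10 B-WT replicate 1 was left out (exact permutation p = 0.0260).

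Hbegf (ENSMUSG00000024486, chromosome 18), heparin-binding EGF-like growth factor, was the EGFR ligand with the highest TPM. It ranged from 14.4 to 46.86 TPM (median 21) in IL-10 B-WT and from 15.39 to 62.95 TPM (median 27.6) in IL-10 B-KO lungs. The ranges overlapped almost wholly, with IL-10 B-KO replicate 5 above the others. Its log2 fold change was 0.34 (SE 0.33, interval -0.37 to 1.04, limma adjusted p = 0.658). The log2 fold change of Hbegf was 0.13 without IL-10 B-KO replicate 5, 0.53 without replicate 1 of IL-10 B-WT and 0.52 without replicate 2 of IL-10 B-KO. Their shared receptor, Egfr (ENSMUSG00000020122, chromosome 11, 16752203 to 16918158, plus strand), was at 1.32 to 4.13 TPM (median 1.83) in IL-10 B-WT and 0.94 to 3.35 TPM (median 1.65) in IL-10 B-KO lungs. The difference of Egfr was -0.09 on log2(TPM + 1) (interval -0.64 to 0.46), smaller than its spread within either genotype. Thus the level of the receptor did not separate the genotypes in either direction, while 1 of its ligands had the largest difference of the 9 tested genes.

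**Figure D2:**
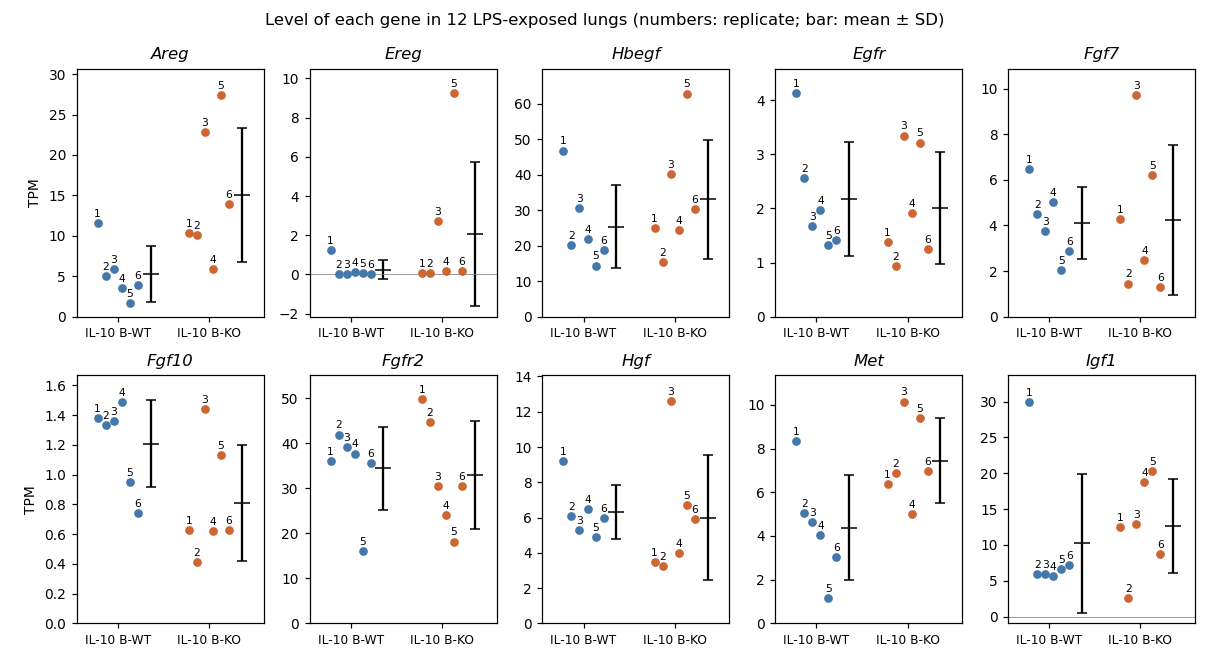
TPM of each of the 10 genes in every lung, with the replicate number above each point and the mean ± SD (n = 6) at the right of each group. The vertical axes differ between genes, and the lower SD bar of Ereg runs below 0 because 1 lung carries most of its mean. IL-10 B-KO replicates 3 and 5 and IL-10 B-WT replicate 1 sit high in most panels.

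Met (ENSMUSG00000009376, chromosome 6, 17463800 to 17573980, plus strand), the receptor of hepatocyte growth factor, was the other gene with a low p. It lay between 1.16 and 8.36 TPM (median 4.33) in IL-10 B-WT and between 4.99 and 10.15 TPM (median 6.91) in IL-10 B-KO lungs. As for Areg, all 6 IL-10 B-KO lungs were above the IL-10 B-WT median and 4 IL-10 B-WT lungs were below the lowest IL-10 B-KO lung, and IL-10 B-WT replicate 1 overlapped the IL-10 B-KO group. The mean was 4.38 ± 2.39 TPM against 7.45 ± 1.94 TPM (SD, n = 6 each), a ratio of 1.70. The log2 fold change of Met was 0.75 (SE 0.30, interval 0.11 to 1.39), with an unadjusted limma p of 0.0245, an adjusted p of 0.345 and an exact permutation p of 0.0303. The unadjusted limma p of Met was 0.0546 without IL-10 B-KO replicate 3 and 0.0511 without IL-10 B-KO replicate 5.

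Its ligand Hgf (ENSMUSG00000028864, chromosome 5, 16553495 to 16620152, plus strand), a product of fibroblasts and other mesenchymal cells, did not separate the genotypes. Hgf was at 4.9 to 9.22 TPM (median 6.05) in IL-10 B-WT and 3.25 to 12.63 TPM (median 4.96) in IL-10 B-KO lungs. Hgf was below the whole IL-10 B-WT range in 3 IL-10 B-KO lungs and above it in replicate 3. The coefficient of variation was 24.1% in IL-10 B-WT but 58.8% in IL-10 B-KO lungs. The log2 fold change of Hgf was -0.17 (SE 0.27, interval -0.75 to 0.41, limma adjusted p = 0.791).

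Of the ligands of Fgfr2, Fgf10 (ENSMUSG00000021732, chromosome 13, 118669791 to 118792115, plus strand), which branching lung epithelium needs during development, was lower in most IL-10 B-KO lungs. It ranged from 0.74 to 1.49 TPM (median 1.35) in IL-10 B-WT and from 0.41 to 1.44 TPM (median 0.63) in IL-10 B-KO lungs. In 4 IL-10 B-KO lungs Fgf10 was lower than in any IL-10 B-WT lung, whereas replicates 3 and 5 were within the IL-10 B-WT range. The mean of 1.21 ± 0.294 TPM against 0.81 ± 0.390 TPM gave a log2 fold change of -0.30 (SE 0.17, interval -0.67 to 0.06) with an unadjusted limma p of 0.0970, an adjusted p of 0.466 and an exact permutation p of 0.0758. Fgf10 just passed the filter, with 1 TPM or more in 6 lungs. At such levels log2(TPM + 1) understates a fold change.

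Fgf7 (ENSMUSG00000027208, chromosome 2, 126034658 to 126091185, plus strand), keratinocyte growth factor, was at 2.06 to 6.48 TPM (median 4.13) in IL-10 B-WT and 1.29 to 9.74 TPM (median 3.38) in IL-10 B-KO lungs. IL-10 B-KO lungs lay both below and above the IL-10 B-WT range, with a coefficient of variation of 77.3% against 38.3%. Its log2 fold change was -0.14 (SE 0.37, interval -0.93 to 0.66, limma adjusted p = 0.887). Fgfr2 (ENSMUSG00000030849, chromosome 7, 130162451 to 133123350, minus strand), the receptor of both ligands, was at 16 to 41.91 TPM (median 36.8) in IL-10 B-WT and 18.17 to 49.74 TPM (median 30.6) in IL-10 B-KO lungs. In IL-10 B-WT replicate 5, Fgfr2 was at 16 TPM while the other 5 lungs of that genotype were at 35.65 TPM or more, and the summed alveolar type 2 markers of that lung were at 3345 TPM, the lowest of the 12. Whether the makeup of that lung set its Fgfr2 level was not tested. The log2 fold change of Fgfr2 was -0.08 (SE 0.27, interval -0.67 to 0.51, limma adjusted p = 0.913).

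Igf1 (ENSMUSG00000020053, chromosome 10, 87858265 to 87937042, plus strand) depended most on 2 lungs. Among IL-10 B-WT lungs, 5 lay at 5.67 to 7.19 TPM but replicate 1 at 29.96 TPM, and among IL-10 B-KO lungs, 5 lay at 8.71 to 20.27 TPM but replicate 2 at 2.61 TPM. These are the lungs that stood apart by their macrophage and monocyte markers, 29.96 TPM of Igf1 going with 1801 TPM of marker and 2.61 TPM of Igf1 with 234 TPM. In other lungs the order differed: IL-10 B-KO replicate 4 had 18.75 TPM of Igf1 with 876 TPM of marker, and replicate 3 had 12.95 TPM with 1840 TPM. IL-10 B-KO replicate 5 had 20.27 TPM of Igf1 with 1985 TPM of marker. Whether macrophage content set the level of Igf1 was not tested. With all 12 lungs, the log2 fold change of Igf1 was 0.36 (SE 0.46, interval -0.63 to 1.36), with an adjusted limma p of 0.738 and an exact permutation p of 0.500. Without both lungs, Igf1 was at 6.25 ± 0.629 TPM in IL-10 B-WT against 14.6 ± 4.78 TPM in IL-10 B-KO lungs (mean ± SD, n = 5 each), and these groups did not overlap. The log2 fold change was then 1.06 with an adjusted limma p of 0.00825 and an exact permutation p of 0.00794, the smallest that 5 against 5 lungs allow.

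In that setting without both lungs, 2 of 8 tested genes passed the DEG threshold, Igf1 and Areg (log2 fold change 1.67, limma adjusted p = 0.0131), against 9.69% of all genes. At an unadjusted p of at most 0.05 the count was 4, with Met (0.95, limma adjusted p = 0.0447) and Hbegf (0.71, limma adjusted p = 0.0981), against 30.9% of all genes, and Igf1 was the 1 gene whose groups did not overlap, against 13.1%. The 2 lungs had been left out with earlier results of these data known, so that these values describe how far the comparison depended on them and are not a second test. Of 21 alternatives, this was the only one in which Igf1 and Hbegf had an unadjusted p of at most 0.05, whereas the means of Areg and Met were above those of IL-10 B-WT with and without them.

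Ordered by mean TPM in IL-10 B-WT lungs, Fgfr2 (34.4 ± 9.29) and Hbegf (25.4 ± 11.8) were highest, followed by Igf1 (10.2 ± 9.69), Hgf (6.33 ± 1.53), Areg, Met, Fgf7 (4.12 ± 1.58), Egfr (2.18 ± 1.05), Fgf10 and Ereg (0.247 ± 0.497). The mean ± SD of each gene overlapped that of the next in the order, apart from Fgf10 and Ereg. In IL-10 B-KO lungs Hbegf (33.1 ± 16.8) and Fgfr2 (33.0 ± 12.1) were again highest, and Areg came next, ahead of Igf1 (12.6 ± 6.51), Met and Hgf (6.0 ± 3.53). Fgf7 (4.24 ± 3.28), Ereg (2.07 ± 3.68), Egfr (2.01 ± 1.04) and Fgf10 closed that order, in which the mean ± SD of every gene overlapped that of the next.

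The same 3 lungs were high for most of the 10 genes. IL-10 B-WT replicate 1, IL-10 B-KO replicate 3 and IL-10 B-KO replicate 5 were each among the 3 highest lungs for 8 of the 10 genes, and replicate 5 of IL-10 B-WT and replicate 2 of IL-10 B-KO were each among the 3 lowest for 6 of the 10. The exceptions to the first pattern included Fgfr2, for which IL-10 B-KO replicate 5 was among the lowest. The 3 high lungs also had the highest summed macrophage and monocyte markers, at 1801, 1840 and 1985 TPM, where the median was 269 TPM for IL-10 B-WT and 1317 TPM for IL-10 B-KO lungs. The share of this makeup in the levels of the growth factor genes was not tested.

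**Figure D3:**
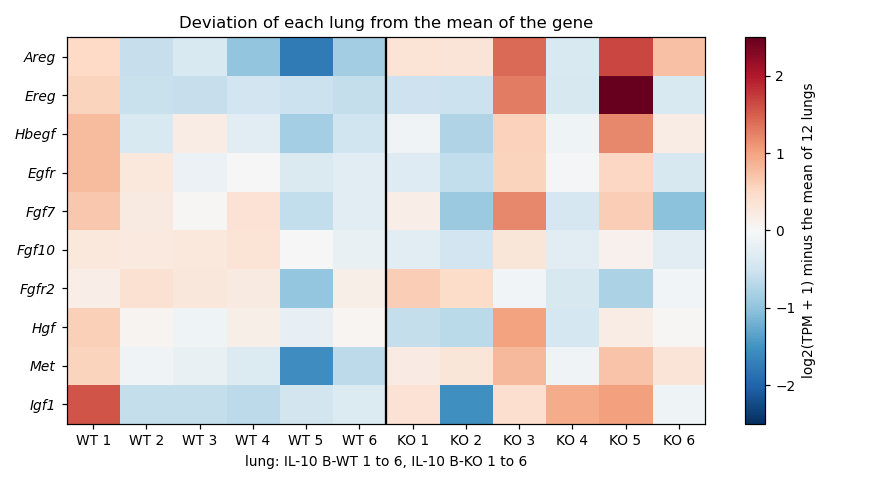
Deviation of each lung from the mean of the 12 lungs, in log2(TPM + 1), for the 10 genes (rows) in replicates 1 to 6 of IL-10 B-WT and of IL-10 B-KO (columns, split by the black line). Red is above and blue below the mean, and the columns WT 1, KO 3 and KO 5 are red for most genes, with Fgfr2 as an exception in KO 5.

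Of the 45 pairs among the 10 genes, 39 had a positive Pearson's r over the 12 lungs, and 15 had an adjusted permutation p of at most 0.05 for r and 14 for Spearman's rho. The share of such pairs among all genes tested was not calculated. These counts therefore cannot be read as more than another 10 genes would give. The closest pair was Areg and Met, ligand and receptor of different systems, with r = 0.93 and rho = 0.94 (adjusted permutation p = 0.00045 for r, from the smallest p that 100000 resamples can give, and 0.00135 for rho). Within genotypes r was 0.96 for IL-10 B-WT and 0.97 for IL-10 B-KO lungs, and it was 0.94 without the 2 lungs farthest from the median of Areg. The relation was thus as close within each genotype as over all 12 lungs. Areg also varied with its fellow EGFR ligands, with r = 0.79 for Hbegf (rho = 0.81, adjusted permutation p = 0.0164) and r = 0.75 for Ereg (rho = 0.72, adjusted permutation p = 0.00934). For Areg and Hbegf, r was 0.59 without the 2 lungs farthest from the median of Areg.

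Egfr varied with its own ligands Hbegf (r = 0.76, rho = 0.64, adjusted permutation p = 0.0192 for r) and Ereg (r = 0.70, rho = 0.49, adjusted permutation p = 0.0281 for r), although the adjusted permutation p of rho was 0.0917 and 0.219. It also varied with mesenchymal ligands. Its r with Fgf7 was 0.86 (rho = 0.92, adjusted permutation p = 0.00878), 0.88 within each genotype and 0.80 without the 2 lungs farthest from the median. Egfr and Hgf had r = 0.79 (rho = 0.84, adjusted permutation p = 0.0164), and Fgf7 and Fgf10 had r = 0.78 (rho = 0.78, adjusted permutation p = 0.0192). Without the 2 farthest lungs, r was 0.61 for Egfr and Hgf and 0.74 for Fgf7 and Fgf10. Fgfr2 was in none of the 15 pairs, with r between -0.46 (with Ereg) and 0.29 (with Met). With its own ligands, r was 0.05 for Fgf7 and -0.06 for Fgf10 over all 12 lungs, but the sign differed between the genotypes. For Fgf7 r was 0.72 within IL-10 B-WT and -0.29 within IL-10 B-KO lungs (rho 0.49 and -0.09). For Fgf10 r was 0.47 within IL-10 B-WT and -0.52 within IL-10 B-KO lungs (rho 0.43 and -0.23). These within-genotype values, from 6 lungs each, were not tested. TPM of 1 library share 1 total and 1 cell makeup, and a correlation between genes over whole lungs cannot be told apart from a shared change in makeup.

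**Figure D4:**
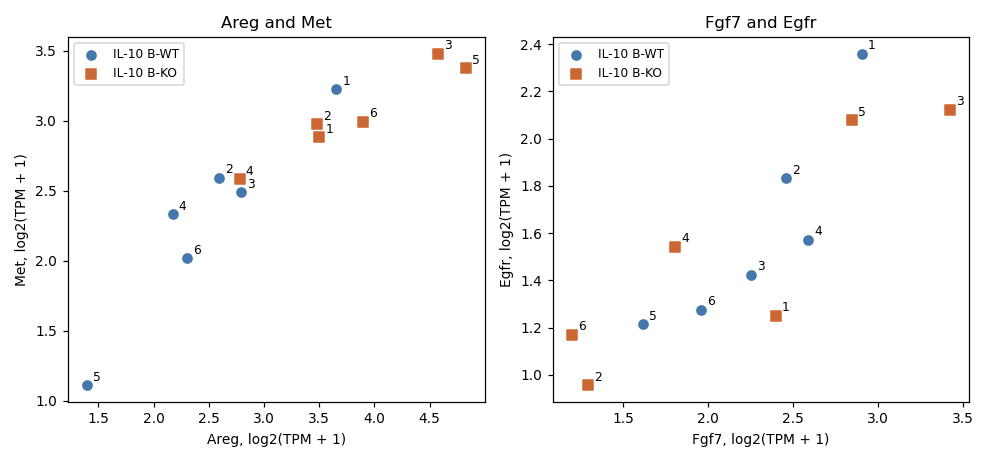
Areg against Met (left) and Fgf7 against Egfr (right) in log2(TPM + 1), 1 point a lung with its replicate number, circles for IL-10 B-WT and squares for IL-10 B-KO. The 12 lungs of both genotypes lie along 1 line for Areg and Met (r = 0.93), with IL-10 B-WT replicate 1 among the IL-10 B-KO lungs.

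Among the other 15147 genes tested, those with levels most like a given gene over the 12 lungs were as follows by Pearson's r, given as a description. Areg was closest to Tlcd4 (0.965), Nlrx1 (0.964) and R3hdm4 (0.964), and Met to Snrnp35 (0.985), Gtf2f2 (0.979) and Mpzl3 (0.976). Hbegf was closest to Fstl3 (0.968), Zyx (0.967) and Tgm2 (0.965), and Egfr to Ptgir (0.982), Flna (0.961) and Fzd1 (0.960). Fzd1, which codes for a Wnt receptor, was also among the 3 closest genes of Fgf7 (Gpr153 0.940, Src 0.936, Fzd1 0.924). Fgf10 was closest to Apcdd1 (0.895), Serpina3c (0.887) and Tshz2 (0.883), and Hgf to Septin7 (0.938), Col7a1 (0.923) and Lamb1 (0.912), the last 2 of which code for matrix proteins. Fgfr2 was closest to Ttc5 (0.949), Cngb1 (0.933) and Ago4 (0.932), and Igf1 to Trim30c (0.928), Ppp1r9b (0.921) and Fgd1 (0.914). No gene was therefore on the lists of both Areg and Met.

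The other genes of the 4 systems were read from lists of 79 genes, of which 66 were tested. At an unadjusted limma p of at most 0.05, 1 of them had a higher and 9 a lower mean in the IL-10 B-KO group, which is 15.2% beside the 12.5% of all genes. None had an adjusted p of at most 0.05. The median log2 fold change of the 66 genes was 0.02, with 36 higher and 30 lower. Without IL-10 B-WT replicate 1 the count at that p was 25 genes of the lists, where the share of all genes was 25.1%. Without IL-10 B-KO replicate 2 it was 18 genes, where the share of all genes was 18.7%. Array quality weights gave 24 genes, with 24.9% of all genes at that p. These are counts of genes, and each is a larger share of the 79 listed genes than the share of all genes beside it. The counts of the lists and of all genes rose in the same settings. Whether the lists differed from all genes was not tested. The genes that passed were spread over the FGF, HGF, IGF and ERK lists, and none was on an EGF list, as the plot of the lists shows.

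The EGF system beyond Areg, Ereg, Hbegf and Egfr showed 0 genes at that p in limma. Of 8 other ligands, 5 were tested (Tgfa, Btc, Nrg1, Nrg2 and Nrg4), with log2 fold changes between -0.23 and 0.43. Tgfa, transforming growth factor alpha and a further EGFR ligand, was at 3.29 ± 1.09 TPM against 3.79 ± 1.34 TPM (SD, n = 6 each). The receptors that pair with Egfr, Erbb2 (10.4 ± 2.57 against 10.6 ± 2.45 TPM) and Erbb3 (6.63 ± 1.81 against 7.37 ± 1.27 TPM), were close to equal in both genotypes. The 9 genes for ligand release and receptor feedback had a median of 0.31 and a range of -0.26 to 0.70. Adam17, the sheddase that frees Areg from the cell surface, was at 26.3 ± 18.7 against 38.5 ± 14.0 TPM (log2 fold change 0.70, limma adjusted p = 0.470).

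In the FGF system, Fgf1, a ligand that binds all FGF receptors, was at 53.2 ± 17.7 TPM in IL-10 B-WT against 31.1 ± 17.1 TPM in IL-10 B-KO lungs (log2 fold change -0.83, SE 0.34, limma adjusted p = 0.358). Fgfr4 was at 5.04 ± 2.46 against 1.93 ± 0.870 TPM (-1.01, SE 0.27, limma adjusted p = 0.145). Fgfrl1, a receptor without a kinase domain, was at 12.5 ± 1.22 against 8.95 ± 0.995 TPM (-0.44, SE 0.13, limma adjusted p = 0.223), and its groups did not overlap. Counting by list, 1 of 3 tested other ligands and 2 of 7 tested receptors and cofactors were lower at an unadjusted p of at most 0.05 and 0 were higher, beside 5.71% of all genes lower at that p. The list medians were -0.48 and -0.23.

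In the HGF system, 7 of 8 tested genes for HGF activation and MET partners had the higher mean in IL-10 B-KO lungs, and the list had a median of 0.36. This count was 5 of 8 after median centring or quantile normalization. The exception was Gab1, the adaptor that MET uses, at 15.0 ± 1.57 against 10.5 ± 0.894 TPM (log2 fold change -0.48, SE 0.13, unadjusted p = 0.00233 and adjusted p = 0.150 in limma), and its groups did not overlap. Without further scaling, Gab1 was the 1 gene of the list with an unadjusted p of at most 0.05, and it was in the opposite direction to Met. After median centring 3 genes of the list were higher and 1 lower at that p in limma. After quantile normalization 2 were higher and 1 lower. Of all 15148 genes tested, 1567 and 1553 were higher at that p after these scalings. Hpn, a protease that activates HGF, was at 8.25 ± 2.96 against 12.0 ± 2.59 TPM (0.56, limma adjusted p = 0.415). The 7 also included Spint1 (0.59, limma adjusted p = 0.443) and Spint2 (0.08), which code for inhibitors of such proteases. Mst1r, another of the 7, was at 0.0002, so that the count of 7 does not measure HGF activation.

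In the IGF system, Igf2, the second ligand, was at 10.5 ± 6.85 against 3.96 ± 2.73 TPM (log2 fold change -1.20, SE 0.45, limma adjusted p = 0.330). Irs1, the adaptor of the IGF1 and insulin receptors, was at 1.5 ± 0.313 against 0.68 ± 0.297 TPM (-0.58, SE 0.16, limma adjusted p = 0.153), while the receptor Igf1r was at 7.65 ± 1.57 against 7.91 ± 0.790 TPM. Igfbp3, a binding protein that holds IGF1 in the extracellular space, was at 19.2 ± 11.4 against 6.76 ± 2.49 TPM (-1.29, SE 0.33, limma adjusted p = 0.125) and did not overlap between the groups. Of 9 tested binding proteins and their regulators, 7 were lower and 2 higher, with a median of -0.23 and 1 at an unadjusted p of at most 0.05.

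Of 17 genes that ERK signaling induces or that feed back on it, 9 were higher and 8 lower, with a median of 0.11. Ier3, an immediate early gene, was at 136.4 ± 68.5 against 266.2 ± 128.4 TPM (log2 fold change 0.94, SE 0.38, limma adjusted p = 0.350). The feedback inhibitors Spry1 (35 ± 6.18 against 24 ± 4.88 TPM, -0.53, SE 0.18, limma adjusted p = 0.292) and Spred2 (14.5 ± 2.84 against 10.0 ± 1.56 TPM, -0.48, SE 0.16, limma adjusted p = 0.290) were lower at an unadjusted p of at most 0.05. The list thus held genes on both sides of 0.

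**Figure D5:**
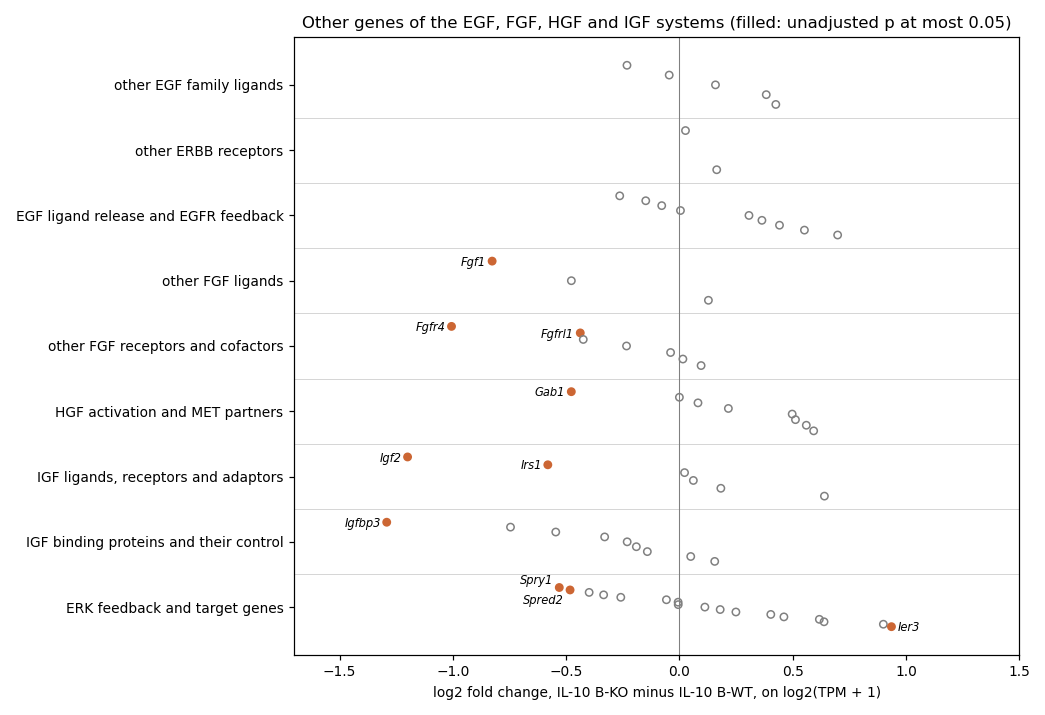
Log2 fold change, IL-10 B-KO minus IL-10 B-WT, on log2(TPM + 1) of the 66 tested genes of 9 lists, 1 point a gene, with the list on the vertical axis. Filled points have an unadjusted limma p of at most 0.05 and are named, and 9 of the 10 lie left of 0.

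Markers of the cells that make or receive these signals also differed in level between the genotypes. All 8 alveolar type 2 markers had higher values in IL-10 B-KO lungs, 5 of them at an unadjusted limma p of at most 0.05 (2 of them after rescaling without immunoglobulin genes and 6 after median centring, median log2 fold change 0.85), and their sum ranged from 3345 to 17425 TPM in IL-10 B-WT and from 11745 to 21360 TPM in IL-10 B-KO lungs. All 6 pan-epithelial markers were higher, 3 at that p (median 0.65, sums of 191 to 1047 against 558 to 1441 TPM), or 5 of 6 after quantile normalization. The 3 were the keratins Krt8, Krt18 and Krt19, while Epcam, Cdh1 and Nkx2-1 were above that p. Other epithelial lists differed from the alveolar type 2 and pan-epithelial lists. Of 7 alveolar type 1 markers 4 were lower, 1 at that p (median -0.11). Of 5 tested airway epithelial markers 4 were lower, 0 at that p in limma (median -0.89). All 9 macrophage and monocyte markers were higher, 6 at that p (median 1.48, sums of 108 to 1801 against 234 to 1985 TPM), and so were all 6 neutrophil markers, each at that p (median 1.72, sums of 272 to 2457 against 1035 to 7438 TPM). All 3 tested mesothelial markers were higher too, each at that p (median 1.20), or 2 of them at that p after median centring. Their list of 4 genes summed to 7.03 to 90.34 against 47.05 to 135.08 TPM. Areg and Met were higher in the same direction as the alveolar type 2, pan-epithelial, mesothelial, macrophage and neutrophil lists, and in the opposite direction to most airway markers. All 5 proliferation markers were higher as well, 2 at that p (median 1.03, sums of 11.4 to 196.1 against 55.7 to 168.9 TPM). The part of cell makeup in the difference of Areg and Met was not tested.

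On the mesenchymal side, where Fgf7, Fgf10 and Hgf are made, 6 of 10 fibroblast markers were lower, 3 at an unadjusted p of at most 0.05 (median -0.26, sums of 747 to 2155 against 495 to 1983 TPM). All 6 pericyte markers were lower, 3 at that p and 2 also at an adjusted limma p of at most 0.05 (median -0.64), and all 5 smooth muscle markers were lower, 3 at that p (median -0.91). Of the mesenchymal ligands, Fgf10 had the lowest log2 fold change, and its part in this shift was not tested. For innate lymphoid cells of type 2, a known source of Areg in the lung, only 2 of 5 listed genes were tested, Gata3 and Rora. Both were lower (median -0.49), with log2 fold changes of -0.81 for Gata3 and -0.18 for Rora, 1 of them (Gata3) at an unadjusted p of at most 0.05. The other listed genes, Il1rl1, Il5 and Il13, did not pass the filter. Whether these cells differed in number between the genotypes was not tested.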

How the data were processed

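Whole-lung RNA of 12 libraries, 6 from IL-10 B-WT mice and 6 from IL-10 B-KO mice, was analyzed. The authors deposited 1 table of TPM per gene, calculated with RSEM after read trimming with fastp and alignment with HISAT, per the submitters' processing notes on GRCm38.p5. Versions and the annotation release were not given in the sources used here. TPM keep no depth, so that no count model was fitted, and TPM of 1 library are not independent of each other, since they share a total. Columns were matched to samples by name, with 0 columns of per-sample values unused. No 2 libraries were identical. The labels number the libraries and do not state that each came from another mouse, so that p-values measure the spread between these libraries.

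Differences were calculated on log2(TPM + 1) with limma 3.58.1 in R 4.3.3 (lmFit, eBayes with trend, a model with genotype alone) over 15148 genes with at least 1 TPM in at least 6 libraries, with Benjamini-Hochberg adjustment over all of them. The fold threshold of 1 was read as a log2 value. For single genes a two-sided exact permutation test was added, and pairs of genes were compared by Pearson's r and Spearman's rho with 100000 resamples, adjusted over 45 pairs. Gene coordinates are those of GENCODE M21 (GRCm38), in which 52133 of 55414 gene IDs were found, and promoter sequence is from RefSeq (GRCm38.p6). Other steps used SciPy 1.17.1, pandas 2.3.3, NumPy 2.4.6 and matplotlib 3.10.9 in Python 3.11.15. The limma fit was first tested on simulated data.

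The 10 genes, the pathway and marker lists and the alternatives were chosen with earlier results of these data known. The pathway genes named were those at an unadjusted p of at most 0.05, up to the 2 largest fold changes in each direction of a list. Tgfa, Erbb2, Erbb3, Adam17, Hpn, Spint1, Spint2, Mst1r and Igf1r were named for their role or value, after their values were seen. Alternatives to the scaling were rescaling after immunoglobulin genes were dropped, quantile normalization and median centring. The others were a pseudocount of 0.1, all genes or those with a mean of at least 5 TPM, array quality weights, a replicate block, each library left out, and replicate 1 of IL-10 B-WT left out together with replicate 2 of IL-10 B-KO.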

Additional observations from a re-analysis of the deposited data

Results flagged for a closer look

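In 20 groups of 6 lungs (10 genes in 2 genotypes), 6 values lay farther from the nearest other lung than Dixon's 95% critical value allows for the gap as a share of the range. For independent groups of normally distributed values, chance gives about 1 such group in 20. Here the ratio was taken on TPM, not on log2(TPM + 1), and the groups share the same lungs. The count of 6 therefore cannot be set against that rate. For Ereg these were IL-10 B-WT replicate 1 at 1.26 TPM (gap 0.928 of the range) and IL-10 B-KO replicate 5 at 9.27 TPM (0.710). For Igf1 it was replicate 1 of IL-10 B-WT, at 29.96 TPM (0.937). For Hgf they were IL-10 B-WT replicate 1 at 9.22 TPM (0.634) and IL-10 B-KO replicate 3 at 12.63 TPM (0.632). For Fgfr2 it was IL-10 B-WT replicate 5, which was low at 16 TPM (0.758). IL-10 B-WT replicate 1 gave 3 of the 6 values.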

How the results depend on the processing

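Areg was higher in the IL-10 B-KO group, with an unadjusted limma p of at most 0.05, in each of the 21 alternatives (log2 fold change 1.11 to 1.67, adjusted limma p 0.0131 to 0.442), and Met in 19 of 21 (0.52 to 0.95, adjusted limma p 0.0447 to 0.644). Leaving out 1 library at a time gave 0 to 1 DEGs among the 10 genes (1 without IL-10 B-WT replicate 1), 1 to 2 genes at an unadjusted p of at most 0.05 (1 without IL-10 B-KO replicate 3 or 5), 0 with groups that did not overlap, 1 to 3 at an exact permutation p of at most 0.05 (1 without IL-10 B-WT replicate 4), and 8 to 25 pathway genes. Without replicate 1 of IL-10 B-WT together with replicate 2 of IL-10 B-KO, these counts were 2, 4, 1, 5 and 27. In that setting 30.9% of all genes had an unadjusted p of at most 0.05. Array quality weights gave 24 pathway genes, where the share of all genes was 24.9%. Both of these pathway counts are larger shares of the 79 pathway genes than the shares of all genes beside them. The causes were not tested.

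The sign of 4 genes with differences near 0 turned when lungs were left out: Egfr lay between -0.21 (IL-10 B-KO replicate 3 left out) and 0.17 (both lungs), Fgf7 between -0.39 and 0.16 (the same settings), Fgfr2 between -0.28 (replicate 5 of IL-10 B-WT left out) and 0.071 (replicate 5 of IL-10 B-KO left out), and Hgf between -0.39 (IL-10 B-KO replicate 3 left out) and 0.049 (both lungs). Median centring moved the median of all genes from 0.10 to -0.01, and Fgf10 was then at -0.41 (limma adjusted p = 0.230, an unadjusted p under 0.05). A pseudocount of 0.1 gave 16 gene pairs in place of 15. The libraries share replicate numbers, but same-numbered libraries had correlations of their deviations from -0.292 to 0.046. With a replicate block, 0 DEGs, 2 genes at an unadjusted p of at most 0.05 and 11 pathway genes were found, with Areg at 1.36 (limma adjusted p = 0.391). The read depth behind the low values of Ereg and Fgf10 is unknown.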
